A study of Ovis aries with 20 samples.

Results

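Pancreas of wild type (WT) fetal sheep was compared at 120 and at 100 days of gestation. The comparison rests on 4 of the 20 bulk RNA-seq libraries of the study, those of 2 WT animals at each age, which were chosen by their genotype and age labels and examined across all genes. The animals were American Romney fetuses obtained by standard breeding, with no transgene, targeted allele or treatment, and each library was made from pancreas tissue of 1 animal. The libraries of the study cover WT and CFTR-/- animals at 5 ages, from 65 days to term, and the other 6 WT libraries entered the fit to estimate the spread between animals. CFTR encodes a chloride and bicarbonate channel of epithelia, and the CFTR-/- animals enter only the comparison of steps near the end. Nothing in the labels says whether animals of 1 age shared a litter, and the labels of both 100-day samples share a stem, as do those of both 120-day samples. P-values therefore measure only the spread between the samples in the fit, pooled over the ages, and not that of the 4 compared libraries alone. Besides, 2 animals against 2 cannot give an exact permutation p below 0.333 (two-sided).

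The pancreas is built of acinar cells that make digestive proenzymes, ducts that carry and alkalinise their secretion, and islets of endocrine cells that make glucagon, somatostatin and other hormones. Connective tissue with vessels and nerves divides it into lobules, and fat cells come to lie between these lobules. Metallothioneins are small cysteine-rich proteins that bind zinc and copper, and their genes are switched on by zinc through the factor MTF1 and by glucocorticoids. In bulk tissue a lower level of a gene can come from fewer cells of a type or from less RNA per cell, and these cannot be told apart.

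At 120 days the metallothionein genes MT1A, MT1C and MT2A and most islet genes were lower in both animals, and most connective tissue genes and 12 of 22 fat cell genes were higher in both. Blood, lymphoid and nerve genes were far higher in 1 of the 2 animals. With both animals in the fit no gene passed the test, and what follows describes where the animals were alike and where they were not.

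Total counts were 62714829 and 61325786 in 100-day animals 1 and 2 and 64397668 and 58808503 in 120-day animals 1 and 2, so that 1 read was worth 0.0144 to 0.0217 CPM (counts scaled by TMM to a common library size). A chymotrypsinogen gene, LOC101117443 (CTRB1, chr14:1938235-1944246, assembly Oar_v4.0), took 18.5% to 23.4% of the counts of each of these 4 libraries. Acinar, ductal and islet marker genes were detected in all 4, at levels given below. The 120-day animals were less alike than the animals of any other WT age. The median absolute difference between both animals over 18714 genes was 0.783 on the log2 scale at 120 days, against 0.466 at 100 days and 0.270 to 0.643 at the other ages. At 120 days 41.4% of genes lay 2-fold or more apart, of which 3683 were higher in animal 2 and 4059 in animal 1, against 24.5% of genes at 100 days.

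The spread was partly ordered by gene length, in the same way at both ages but with the animal numbers exchanged. When genes were split by exon length into 5 groups of equal size, in the shortest (68 to 1444 bases) 100-day animal 2 lay below 100-day animal 1 by a median of -0.38 (log2), and in the longest (5712 to 113012 bases) it lay above by 0.24. Against both 100-day animals, 120-day animal 1 had medians of -0.42 in the shortest group and 0.23 in the longest group, and 120-day animal 2 had 0.07 and -0.12. Each gene below is therefore given with its value in every animal, animal 1 first, and both 120-day animals were also fitted alone against the 100-day animals.

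With both 120-day animals in the fit, 0 of 18714 genes (0%) were called by edgeR's quasi-likelihood test which asked for an adjusted p no higher than 0.01 and a log2 change of 0.58 or more in either direction, while DESeq2 called 42. The smallest adjusted p, that of ADIPOQ, was 0.248. There were 979 genes (5.23%) higher and 383 (2.05%) lower at an unadjusted p of at most 0.05, and 137 (0.732%) and 54 (0.289%) at one of at most 0.01 with the same fold limit. The ages did not overlap in 2451 genes (13.1%) that were higher and 2568 (13.7%) that were lower at 120 days. With 120-day animal 1 alone 2 genes fell and 0 rose, and with animal 2 alone 29 genes (0.155%) rose and 2 (0.0107%) fell. The genes that fell were the same pair in both of these fits. These 2 fits share the 100-day animals, and each assumes that its lone 120-day animal varied like animals of the other ages. The median log2 fold change of all genes was 0.03, and with the trend with gene length removed it was -0.09. No member of any list described below passed the test with both 120-day animals, so directions below are values and not calls unless a single-animal fit is named.

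**Figure D1:**
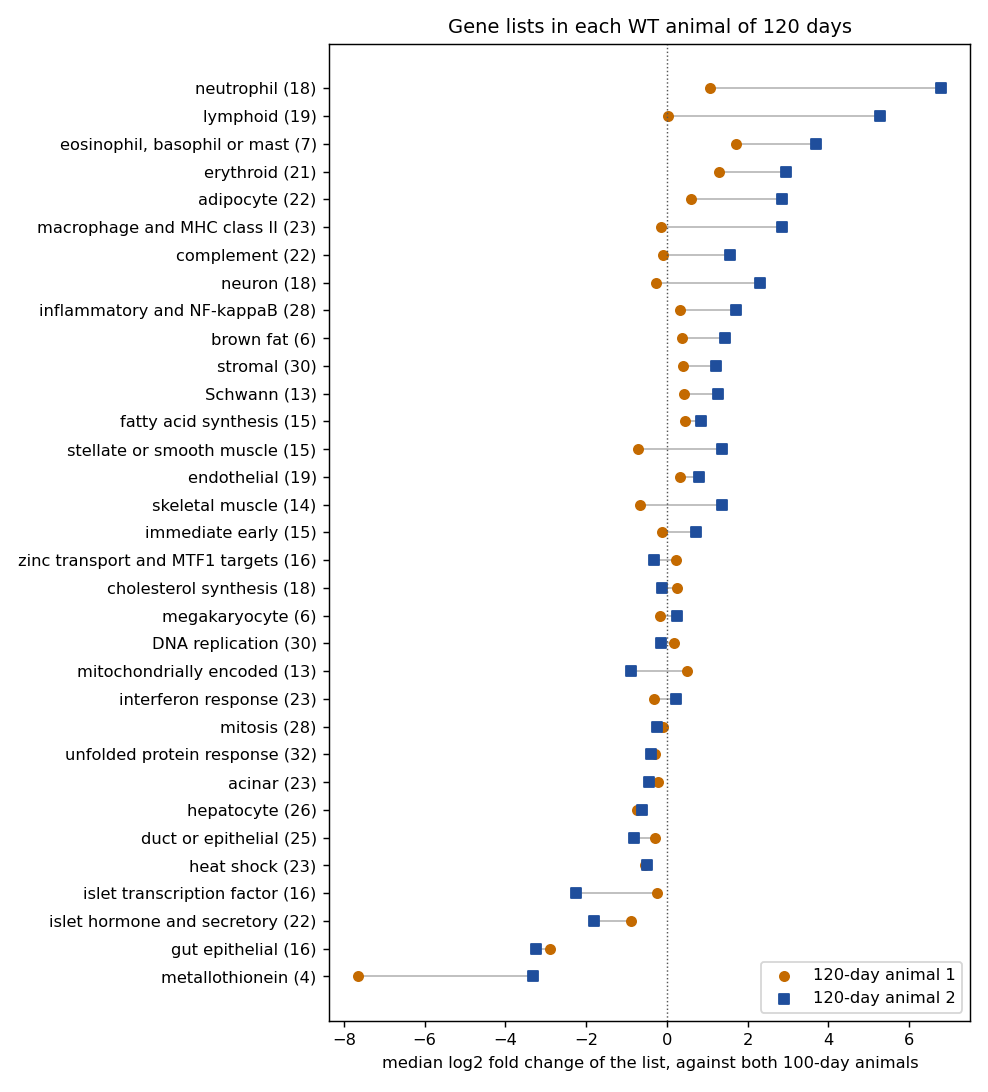
Median log2 fold change of 33 gene lists in 120-day animal 1 (circles) and animal 2 (squares), each against both WT animals of 100 days, with the number of genes tested in brackets and the dotted line at 0. Metallothionein, islet and heat shock lists lie below 0 in both animals, while the neutrophil, lymphoid and macrophage lists lie far above 0 in animal 2.

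The 2 genes that fell in both single-animal fits encode metallothioneins, and they lie close together on chromosome 14. MT2A (LOC101117955, chr14:23457909-23458929) was counted at 99.5 and 67.5 CPM at 100 days against 0.318 and 5.71 CPM at 120 days. LOC101117691 (chr14:23449696-23451103), which the study's tables name MT1C, was counted at 61.1 and 41.9 CPM at 100 days against 0 and 0.909 CPM at 120 days. Both genes were abundant in both 100-day animals and nearly absent from 120-day animal 1, with animal 2 in between and no overlap of the ages. For animal 1 alone edgeR's adjusted p was 0.00406 for MT2A and 0.00812 for MT1C, and for animal 2 alone it was 0.00746 and 0.00669. With both animals the log2 fold changes were -4.82 ± 0.91 (SE) and -6.94 ± 0.89, with adjusted p of 0.659 and 0.262. The 0 counts of MT1C in animal 1 put it at least 1189-fold below the 100-day mean, taking 3 counts as the floor of that library.

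MT1A (LOC101117184, chr14:23438877-23440746) lies in the same stretch and followed the same order, at 14.3 and 8.37 CPM at 100 days against 0.0722 and 1.65 CPM at 120 days. MT3, the form known from brain, did not. It was counted at 0.934 and 0.235 CPM at 100 days against 0.0866 and 12.6 CPM at 120 days, and so was highest in 120-day animal 2 alone. These 4 genes made up the whole tested list, of which 1 was higher and 3 were lower with both animals, and the same 4 had an unadjusted p of at most 0.05, against 7.28% of all genes. The summed level of the list was 176 and 118 CPM at 100 days against 0.476 and 20.9 CPM at 120 days. At the other WT ages it was 401 and 254 CPM at 65 days, 251 and 253 CPM at 80 days, while term animals had 29.9 and 33.8 CPM. The 100-day animals thus lay below the 4 younger ones, and the 120-day and term animals below all of these. The metallothionein genes are near-identical copies of each other, and reads that match several copies may have been lost or moved between them in the counting. The transcripts are among the shortest tested, at 198 to 474 bases, and 120-day animal 1 ran low in short genes, as did 100-day animal 2. With the length trend removed the list's median log2 fold change was -4.31, the same as without its removal.

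Differences in the zinc exporters SLC30A1, SLC30A2 and SLC30A5 were smaller. SLC30A2, a carrier that loads zinc into secretory vesicles and is abundant in acinar cells, was counted at 71.4 and 50.9 CPM at 100 days against 33.3 and 24.2 CPM at 120 days (log2 fold change -1.09 ± 0.25). SLC30A1, the exporter of the plasma membrane and a known MTF1 target, was counted at 32 and 31.4 CPM at 100 days against 22.9 and 22.4 CPM at 120 days. Both 120-day animals lay below both 100-day animals for these 2 exporters, by about the same amount in animals 1 and 2 for SLC30A1. SLC30A5, which serves the secretory pathway, had 75 and 62.6 CPM at 100 days against 63 and 53.5 CPM at 120 days, with the ages overlapping. The importer SLC39A10 went the other way, at 12.8 and 16 CPM at 100 days against 22.1 and 20.9 CPM at 120 days. MTF1 itself was low throughout, at 1.61, 1.49, 1.27 and 1.34 CPM in the same order. In the list of 16 zinc transporters and MTF1 or glucocorticoid targets 11 were higher and 5 lower. Of the higher, 1 had an unadjusted p of at most 0.05 (5.23% of all genes), and of the lower 2 (2.05%). The list's median log2 fold change was 0.19.

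**Figure D2:**
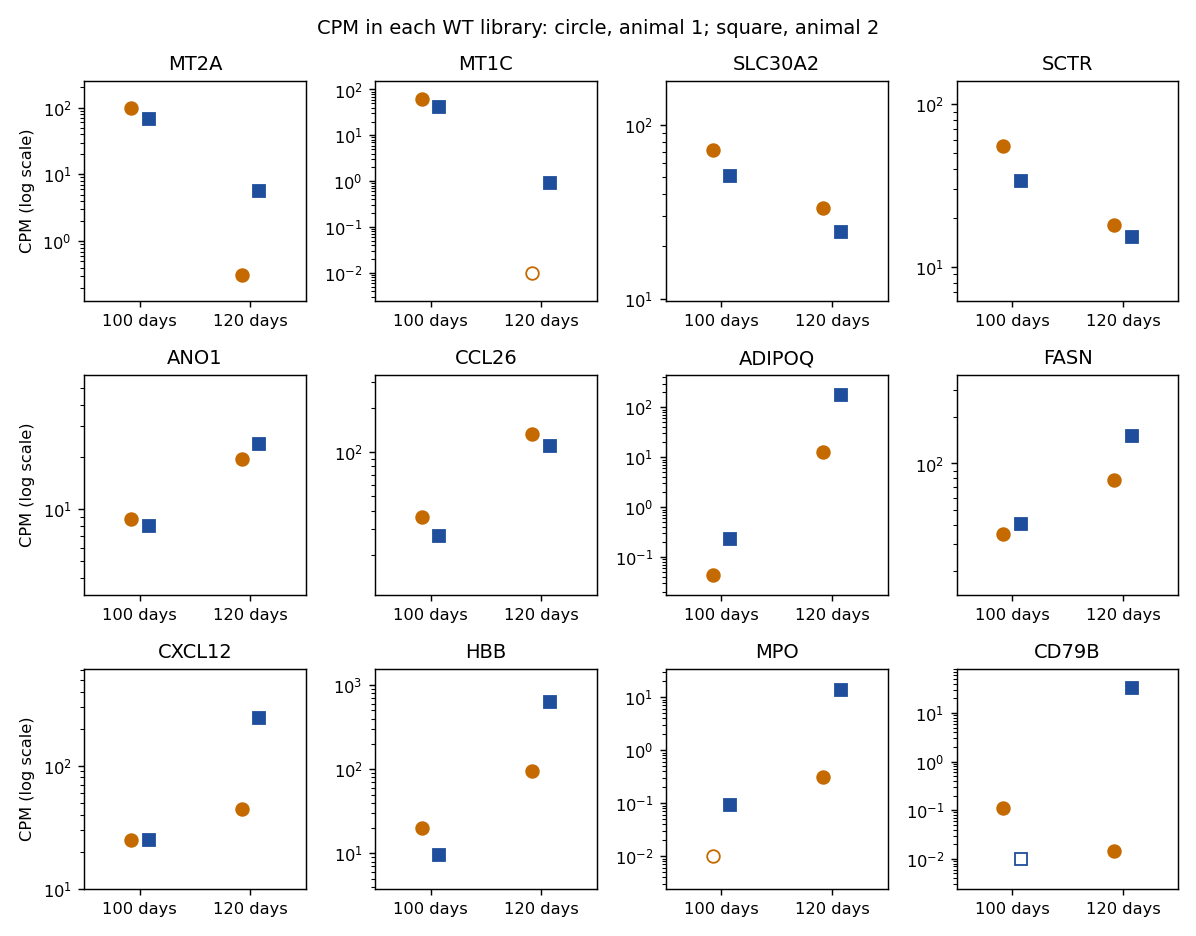
CPM on log axes of 12 genes in the 4 WT libraries, with circles for animal 1 and squares for animal 2 of each age, and open symbols at 0.01 for libraries with 0 counts. The 120-day animals lie close together for SLC30A2, SCTR, ANO1 and CCL26, and far apart for ADIPOQ, CXCL12, HBB, MPO and CD79B.

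A small group of genes was higher at 120 days to nearly the same level in both animals. ANO1 (chr21:46438353-46544132), a calcium-activated chloride channel of acinar and interstitial cells, was counted at 8.76 and 7.99 CPM at 100 days against 19.4 and 23.8 CPM at 120 days (log2 fold change 1.37 ± 0.24). CCL26 (chr24:33931038-33935665), a chemokine that attracts eosinophils, was counted at 36.2 and 26.8 CPM at 100 days against 133 and 110.0 CPM at 120 days, with 1.95 ± 0.35. PFKFB1 (chrX:47871768-48006797), an enzyme that sets the level of a regulator of glycolysis, was counted at 0.152 and 0.751 CPM at 100 days against 6.79 and 5.49 CPM at 120 days. In each of these genes the 120-day animals lay well above both 100-day animals and close to each other. The C4A gene of the complement cascade (LOC101123419, chr20:26398840-26406039) had 8.0 and 12.5 CPM at 100 days against 42.9 and 45.3 CPM at 120 days, and IFI30, a lysosomal thiol reductase, was counted at 18.3 and 9.7 CPM at 100 days against 45.5 and 36.8 CPM at 120 days. LOC101103227, named CLEC2H in the study's tables, rested on few reads, with 10 and 3 at 100 days and 198 and 279 at 120 days. These were 0.217 and 0.0469 CPM at 100 days against 2.86 and 5.17 CPM at 120 days. At the other WT ages LOC101103227 had 1.23 to 9.95 CPM, so the 100-day animals were the lowest of all WT animals and the 120-day animals lay within that range. EdgeR's adjusted p was 0.659 for each of these 6 genes with both animals, 0.648 for each with animal 1 alone, and 0.0178 to 0.0942 with animal 2 alone. C4 genes have near-identical copies, and how reads of copies were counted is uncertain.

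Some genes were lower at 120 days to a like extent in both animals. SCTR (chr2:183749749-183823259), the receptor through which secretin drives bicarbonate secretion by ducts, was counted at 55.6 and 33.9 CPM at 100 days against 18 and 15.3 CPM at 120 days (log2 fold change -1.42 ± 0.27). CHRND (chr2:233226474-233233399), a subunit of the muscle acetylcholine receptor, was counted at 23.1 and 14.6 CPM at 100 days against 5.24 and 6.05 CPM at 120 days, with -1.74 ± 0.35. Both genes were at less than the lower 100-day value in each 120-day animal. SMIM18, ERICH2 and SLC7A9, a carrier of cystine, also lay below both 100-day animals, with log2 fold changes of -1.28 ± 0.28, -2.23 ± 0.50 and -4.60 ± 1.18. SLC7A9 was counted at 2.82 and 1.24 CPM at 100 days against 0.144 and 0 CPM at 120 days, so its fold change rests on 10 and 0 reads at 120 days. At the other WT ages SLC7A9 had 0 to 0.32 CPM, so only the 100-day animals stood out.

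Genes of connective tissue were higher at 120 days. All 30 tested stromal genes had a positive log2 fold change, 14 of them had an unadjusted p of at most 0.05 (5.23% of all genes), and in 20 both animals of 120 days lay above both of 100 days (13.1% of all genes). The list's median was 0.97, against 0.03 for all genes, with 0.41 in animal 1 and 1.21 in animal 2 when each was fitted alone. The summed level was 5799 and 5908 CPM at 100 days against 8023 and 14693 CPM at 120 days. COL3A1 and COL1A1, chains of the fibrillar collagens of loose and dense connective tissue, were counted at 1857, 1809, 2353 and 4184 CPM and at 688, 965, 1512 and 1644 CPM, 100-day animals first. Both collagens were higher in each 120-day animal. COL6A3 of the microfibrillar collagen was counted at 93.9 and 93.6 CPM at 100 days against 149 and 240.0 CPM at 120 days. FN1, encoding fibronectin, had 46.5 and 56.6 CPM at 100 days against 91.7 and 175 CPM at 120 days. In these 4 genes both 120-day animals were above both 100-day animals, and COL1A1 was nearly as high in animal 1 as in animal 2.

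Another 3 stromal genes separated the 120-day animals. ELN, encoding elastin, was counted at 54.3 and 113 CPM at 100 days against 103 and 1369 CPM at 120 days. CXCL12, a chemokine that holds blood cell precursors and lymphocytes in place, was counted at 24.8 and 24.9 CPM at 100 days against 44.5 and 246 CPM at 120 days. Both rose in the fit of animal 2 alone, with adjusted p of 0.00648 and 0.00382 by edgeR, while animal 1 overlapped the 100-day animals for ELN and lay above them for CXCL12. COL5A1 had another order, at 3.89, 13, 46 and 10.6 CPM, and was highest in animal 1. The summed stromal level was 10999 and 12817 CPM at 65 days, between both 120-day animals, and 7005 and 7731 CPM at 80 days, below both.

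Vessel genes followed the stromal ones with smaller differences. Of 19 endothelial genes 18 were higher and 1 lower, with a median log2 fold change of 0.67. An unadjusted p of at most 0.05 was reached by 5 of the higher genes (5.23% of all genes). In 12 both animals of 120 days lay above both of 100 days (13.1% of all genes). KDR, the main receptor of vascular endothelial growth factor, was counted at 21 and 30.5 CPM at 100 days against 45.7 and 43.7 CPM at 120 days. PECAM1, a junction protein of endothelium, had 52.9 and 50.4 CPM at 100 days against 66.3 and 106 CPM at 120 days. VWF, the clotting factor stored by endothelium, was counted at 54.1 and 51.1 CPM at 100 days against 67.3 and 164 CPM at 120 days and was again highest in animal 2. Stellate and smooth muscle genes did not share this order in animal 1. The median of those 15 genes was -0.71 in animal 1 and 1.37 in animal 2, and TAGLN, an actin-binding protein of smooth muscle, was counted at 20.3 and 17.8 CPM at 100 days against 13.8 and 111 CPM at 120 days. TAGLN rose in the fit of animal 2 alone (adjusted p 0.00756, edgeR). ACTA2 and MYH11 were counted at 43.4, 34.2, 23.7 and 186 CPM and at 16.4, 7.12, 6.94 and 66.7 CPM, and so were lowest in 120-day animal 1 and highest in animal 2.

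Fat cell genes were higher at 120 days, above all in animal 2. Of 22 tested adipocyte genes 20 were higher and 2 lower. An unadjusted p of at most 0.05 was reached by 14 of the higher genes (5.23% of all genes). In 12 both animals of 120 days lay above both of 100 days (13.1% of all genes), and in 1 below (13.7%). The list's median log2 fold change was 2.37, with 0.61 in animal 1 and 2.86 in animal 2, and its summed level was 147 and 123 CPM at 100 days against 171 and 882 CPM at 120 days. ADIPOQ, the fat cell hormone adiponectin, had 0.0435 and 0.235 CPM at 100 days against 12.8 and 179 CPM at 120 days. FABP4, the fatty acid carrier of fat cells, was counted at 0.0652 and 0.219 CPM at 100 days against 4.55 and 139 CPM at 120 days. PLIN1, which coats fat droplets, had 0.261 and 0.61 CPM at 100 days against 2.76 and 14.9 CPM at 120 days. In each of these 3 genes 120-day animal 1 lay many-fold above both 100-day animals, and animal 2 lay above animal 1. In animal 1 alone the adjusted p of ADIPOQ was 0.0295 by edgeR. ADIPOQ, FABP4 and TUSC5 rose in the fit of animal 2 alone, with adjusted p of 0.000224, 0.00648 and 0.00669 by edgeR.

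Some members of that list had 0 counts in both 100-day libraries. TUSC5, a protein of fat cells that also carries the name TRARG1, was counted at 0 and 0 CPM at 100 days against 0.852 and 17.4 CPM at 120 days, at least 163-fold higher against a floor of 3 counts per library. LEP, encoding leptin, was counted at 0 and 0 CPM at 100 days against 0.188 and 2.0 CPM at 120 days (at least 19.5-fold), and PLIN4 at 0 and 0 CPM at 100 days against 0.289 and 2.58 CPM at 120 days (at least 25.6-fold). With such genes at their bound the list's median stayed 2.37. LPL, the lipase of capillaries that feeds fat and muscle, was higher in both animals alike, at 0.652 and 1.56 CPM at 100 days against 7.1 and 5.21 CPM at 120 days. Of brown fat genes, UCP1, the uncoupling protein, was counted at 0 and 0.156 CPM at 100 days against 0.144 and 4.19 CPM at 120 days, in animal 2 above the other 3 libraries. EBF2, a factor of fat cell precursors, was at 2.8 and 3.0 CPM at 100 days against 6.63 and 7.57 CPM at 120 days, higher in both animals to a similar level, while PRDM16 and PPARGC1A were at 28.7, 25.2, 30.7 and 14.1 CPM and 15.8, 17.4, 15.9 and 9.98 CPM, lowest in animal 2.

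Genes of fatty acid synthesis were higher, and those of cholesterol synthesis lay near the level of all genes. In the first list 12 of 15 were higher, 7 of these with an unadjusted p of at most 0.05 (5.23% of all genes). The median log2 fold change was 0.89. FASN, the fatty acid synthase, had 35.2 and 40.7 CPM at 100 days against 78.7 and 149.9 CPM at 120 days. ACACA, which makes its substrate, was counted at 21.3 and 22.8 CPM at 100 days against 32.4 and 49.4 CPM at 120 days. ACSS2, which activates acetate, had 33.1 and 34.2 CPM at 100 days against 46 and 94.7 CPM at 120 days. In these 3 genes both animals of 120 days lay above both of 100 days, with animal 2 the higher. SCD, the desaturase, was instead highest in animal 1, at 0.608 and 1.38 CPM at 100 days against 11.1 and 1.82 CPM at 120 days. In the cholesterol list 16 of 18 were higher but 0 reached an unadjusted p of 0.05, at a median of 0.13.

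**Figure D3:**
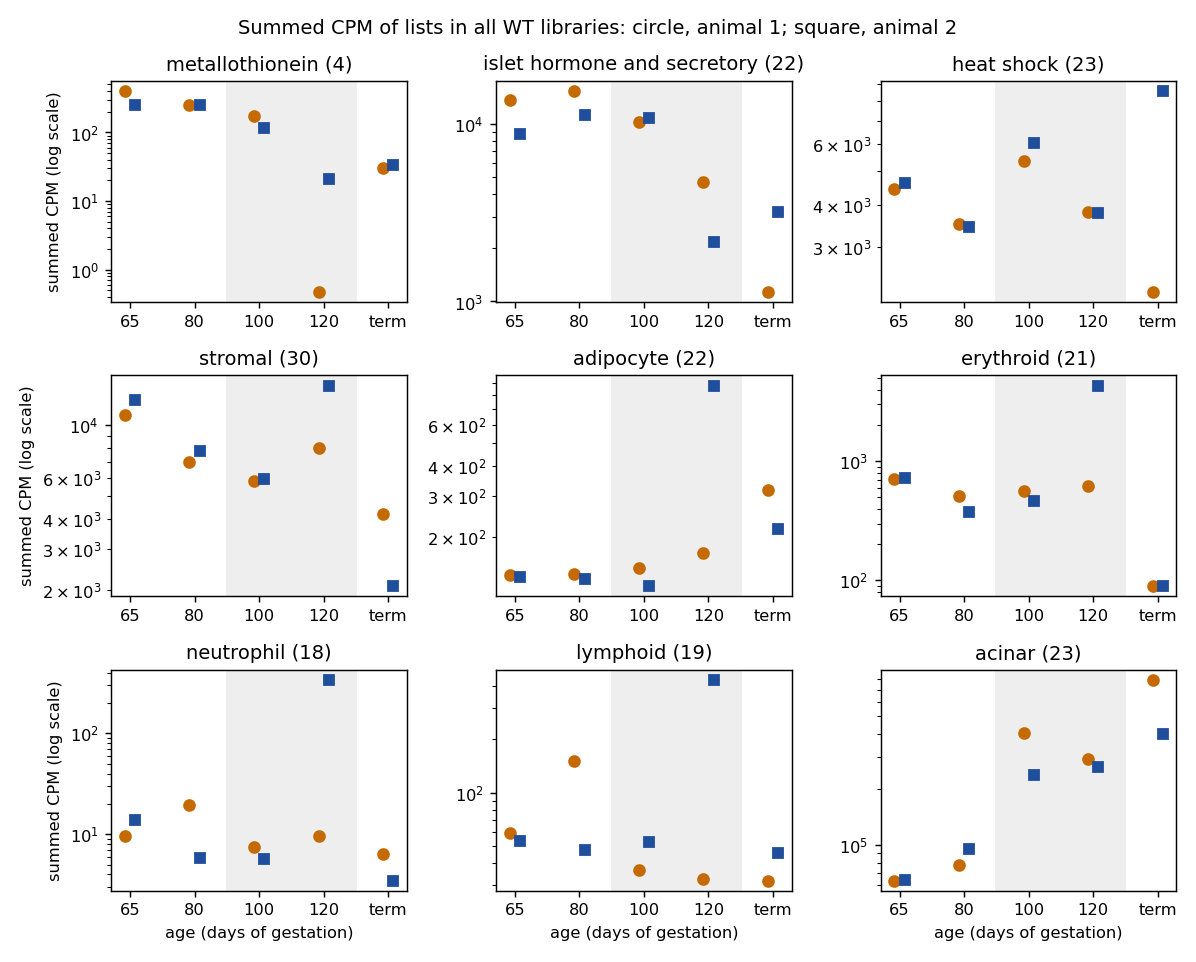
Summed CPM on log axes of 9 gene lists in all 10 WT libraries by age, with circles for animal 1, squares for animal 2, the number of genes in brackets and the compared ages shaded. The metallothionein and islet sums are lower in both 120-day animals than in both 100-day animals, and the erythroid, neutrophil and lymphoid sums stand out in 120-day animal 2.

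Red cell genes were higher at 120 days, with animal 1 between the 100-day animals and animal 2. All 21 erythroid genes had a positive log2 fold change, 15 with an unadjusted p of at most 0.05 (5.23% of all genes). The ages did not overlap in 15 (13.1% of all genes). The median was 2.40, with 1.29 in animal 1 and 2.95 in animal 2. HBB (LOC101105437), a beta globin gene, was counted at 19.9 and 9.46 CPM at 100 days against 95.1 and 629 CPM at 120 days. HBA1 (LOC101108797), an alpha globin gene, had 502 and 396 CPM at 100 days against 424 and 3478 CPM at 120 days. HBB thus lay above both 100-day animals in both 120-day animals, while HBA1 was high in animal 2 alone. ALAS2, the enzyme of haem synthesis of red cell precursors, was counted at 3.13 and 3.61 CPM at 100 days against 7.45 and 44.9 CPM at 120 days. GATA1, their master factor, had 0 and 0.0782 CPM at 100 days against 0.534 and 3.52 CPM at 120 days. HBB and ALAS2 rose in the fit of animal 2 alone, with adjusted p of 0.00716 and 0.00411 by edgeR. Globin genes are near-identical copies, which makes the split of reads between them uncertain.

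Granulocyte genes were close to 0 in 3 of the 4 libraries and high in 120-day animal 2. All 18 tested neutrophil genes had a positive log2 fold change and 17 an unadjusted p of at most 0.05 (5.23% of all genes). The median was 1.06 in animal 1 and 6.80 in animal 2. The summed level was 7.5 and 5.63 CPM at 100 days against 9.54 and 339 CPM at 120 days. MPO and ELANE, enzymes of the primary granules that form in neutrophil precursors, were counted at 0, 0.0938, 0.318 and 13.8 CPM and at 0, 0.0938, 0.144 and 7.99 CPM. BAC5 and CATHL3, cathelicidin peptides of ruminant neutrophils, were counted at 0.13, 0.203, 0.794 and 41.2 CPM and at 0, 0.0625, 0.332 and 14.6 CPM. In all 4 genes animal 1 lay above both 100-day animals at under 1 CPM, and animal 2 far above animal 1. They rose in the fit of animal 2 alone (adjusted p 0.00329, 0.00716, 0.00484 and 0.00329, edgeR). Cathelicidin genes are close copies, which makes the split of reads uncertain. S100A8 and S100A12, calcium-binding proteins of neutrophils, rose there too (adjusted p 0.00772 and 0.00336, edgeR). The genes that rose in that fit included neuron, adipocyte, erythroid and stromal genes as well, and others that belonged to no list. The lists were chosen with earlier results of these data known, so this make-up is no independent result. Among those in no list, CD44, an adhesion receptor of blood and stromal cells, was counted at 15.2 and 13.9 CPM at 100 days. At 120 days it had 16.4 and 87.5 CPM. LOC106990117, a gene like bovine MHC class I, had 7.52 and 5.29 CPM at 100 days against 5.89 and 163 CPM at 120 days. Both were at 100-day levels in animal 1.

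All 7 tested eosinophil, basophil and mast cell genes had a positive log2 fold change. In 4 both animals of 120 days lay above both of 100 days (13.1% of all genes). LOC101105022, named PRG3 in the study's tables and encoding a protein of eosinophil granules, was counted at 0.0217 and 0.0782 CPM at 100 days against 0.722 and 36.6 CPM at 120 days, and its copy LOC101119933 at 0 and 0 CPM at 100 days against 0.303 and 11.3 CPM at 120 days. TPSB2, a tryptase of mast cells, was counted at 7.0 and 3.13 CPM at 100 days against 16.4 and 64.9 CPM at 120 days. In all 3 genes animal 1 lay above both 100-day animals and animal 2 above animal 1. KIT, which mast cells share with other cells, was at 13.2 and 14.1 CPM at 100 days against 20.8 and 9.77 CPM at 120 days. GATA2 had 0 and 0.188 CPM at 100 days against 0.332 and 0 CPM at 120 days. Neither had that order.

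Lymphoid and macrophage genes set 120-day animal 2 apart from the other 3 libraries. All 19 lymphoid genes had a positive log2 fold change and 15 an unadjusted p of at most 0.05 (5.23% of all genes). Their median, however, was 0.02 in animal 1 and 5.27 in animal 2. CD3E of T cells was counted at 1.33 and 0.844 CPM at 100 days against 0.924 and 64 CPM at 120 days. CD79B of B cells had 0.109 and 0 CPM at 100 days against 0.0144 and 32.9 CPM at 120 days. CCR7, which guides cells to lymph nodes, had 0.239 and 0.172 CPM at 100 days against 0.404 and 31.9 CPM at 120 days. In each of these 3 genes 120-day animal 2 alone was high. CCL19, the ligand of CCR7, was among the genes most unlike between both 120-day animals, at 0.521 and 0.0156 CPM at 100 days against 0.0144 and 142 CPM at 120 days. In these genes animal 1 lay at or near the 100-day values. Of 23 macrophage and MHC class II genes all were higher with both animals. An unadjusted p of at most 0.05 was reached by 9 (5.23% of all genes), while the medians were -0.14 in animal 1 and 2.86 in animal 2. CD74, which escorts MHC class II, was counted at 41.8 and 26.7 CPM at 100 days against 27.2 and 538 CPM at 120 days. C1QB had 23.2 and 9.66 CPM at 100 days against 9.05 and 105 CPM at 120 days. MARCO, a scavenger receptor of macrophages in spleen and lymph node, had 0 counts in the other 3 libraries and 8.46 CPM in animal 2. No lymphoid gene and no macrophage gene was called in either single-animal fit.

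In the complement list 16 of 22 were higher and 6 lower. Of the higher, 9 had an unadjusted p of at most 0.05 (5.23% of all genes). C1S, a protease that starts the classical cascade, was counted at 12.3 and 15.1 CPM at 100 days against 33.6 and 36.7 CPM at 120 days and so matched C4A in being alike in both 120-day animals. C3 and CFD were counted at 16.9, 9.02, 12.2 and 69.5 CPM and at 7.41, 3.77, 3.78 and 130.3 CPM, with animal 1 near the 100-day values. In the inflammatory list 26 of 28 were higher, 11 of them with an unadjusted p of at most 0.05 (5.23% of all genes). Its medians were 0.32 in animal 1 and 1.70 in animal 2. TLR4 and NFKBIA, a sensor of bacterial products and an inhibitor of NF-kappaB, were higher in both animals, at 1.11, 1.99, 3.29 and 3.45 CPM and at 12.7, 16.7, 22.8 and 26.6 CPM. OSMR, the oncostatin M receptor, was counted at 1.8 and 1.47 CPM at 100 days against 3.45 and 19 CPM at 120 days. CXCL8, a neutrophil attractant, was lower at 120 days, at 1.3 and 0.798 CPM at 100 days against 0.52 and 0 CPM at 120 days. Interferon response genes showed no common order, with 11 of 23 higher and 12 lower.

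Nerve genes also stood out in 120-day animal 2. NPY, a peptide of sympathetic nerves, was counted at 0.717 and 0.625 CPM at 100 days against 0.635 and 40.9 CPM at 120 days. STMN2, a growth protein of axons, had 5.15 and 2.85 CPM at 100 days against 3.31 and 155 CPM at 120 days. NEFL, a neurofilament, had 1.02 and 0.766 CPM at 100 days against 1.39 and 55.7 CPM at 120 days. All 3 rose in the fit of animal 2 alone (adjusted p 0.000982, 0.00756 and 0.00438, edgeR), while animal 1 lay at 100-day levels for NPY and STMN2 and slightly above for NEFL. The 18 neuron genes had medians of -0.26 in animal 1 and 2.31 in animal 2. Of 13 Schwann cell genes 11 were higher and 2 lower. SNAP25 and ELAVL4, which islet cells share with neurons, were slightly below the 100-day values in both animals, at 23.1, 24.6, 19.1 and 19.1 CPM and at 7.26, 8.05, 6.66 and 6.25 CPM.

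The summed acinar level was 407354 and 240422 CPM at 100 days against 294338 and 266009 CPM at 120 days, so that 120-day animal 2, the library high for blood, lymphoid, fat, smooth muscle and nerve genes, was within the range of the 100-day animals. That sum is mostly CTRB1 (LOC101117443), at 207026 CPM in animal 2, and fitted alone animal 2 was higher than the 100-day animals in 5 of 23 acinar genes and lower in the rest. Its mitochondrially encoded share of counts was 0.855%, against 2.34% in animal 1 and 1.14% and 1.92% at 100 days, and all 13 mitochondrial genes were lower in animal 2 than in animal 1. The part of tissue sampled, RNA quality and age in these differences was not tested.

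Islet genes were lower at 120 days in both animals. Of 22 tested hormone and secretory granule genes 19 were lower and 3 higher. An unadjusted p of at most 0.05 was reached by 7 of the lower genes (2.05% of all genes). In 16 both 120-day animals lay below both 100-day animals, against 13.7% of all genes. The median log2 fold change was -1.14, with -0.88 in animal 1 and -1.81 in animal 2. GCG, encoding glucagon, was counted at 5434 and 6478 CPM at 100 days against 2712 and 843 CPM at 120 days (log2 fold change -1.74 ± 0.80). SST, encoding somatostatin, was counted at 1887 and 1329 CPM at 100 days against 495 and 390.2 CPM at 120 days, with -1.86 ± 0.39. TTR, a thyroid hormone carrier made by alpha cells, had 791 and 937 CPM at 100 days against 307 and 185 CPM at 120 days, with -1.81 ± 0.43. In all 3 genes each 120-day animal was below each 100-day animal. SST differed little between both 120-day animals, and GCG was lower in animal 2. EdgeR's adjusted p was 0.705 for GCG, 0.659 for SST and 0.659 for TTR.

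The lower level was shared by genes of the granule and of electrical activity. CHGA, a granule protein, was counted at 582 and 512 CPM at 100 days against 282 and 179 CPM at 120 days. SCGN, a calcium sensor of islet cells, had 208 and 197 CPM at 100 days against 115 and 67.8 CPM at 120 days. Both were lower in each 120-day animal, most in animal 2. KCNJ11, the pore of the ATP-sensitive potassium channel, was counted at 49.1 and 41.9 CPM at 100 days against 21.7 and 12.6 CPM at 120 days. KCNK16, a background potassium channel of islets, had 100.4 and 89.4 CPM at 100 days against 32.3 and 21.7 CPM at 120 days. These channels were also below both 100-day values in both animals. PPY, encoding pancreatic polypeptide, rested on 100-day animal 1, at 173 and 35.4 CPM at 100 days against 15 and 57.9 CPM at 120 days, and G6PC2 and SLC30A8, genes of beta cells, were at 1.76, 12.5, 14.3 and 0.593 CPM and at 0, 0.438, 0.549 and 0 CPM, with 100-day animal 2 and 120-day animal 1 the higher. The insulin gene and PDX1 were not matched to a gene of the table and were not analysed here. The summed islet level was 10217 and 10696 CPM at 100 days against 4697 and 2166 CPM at 120 days, and at term it was 1132 and 3188 CPM.

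**Figure D4:**
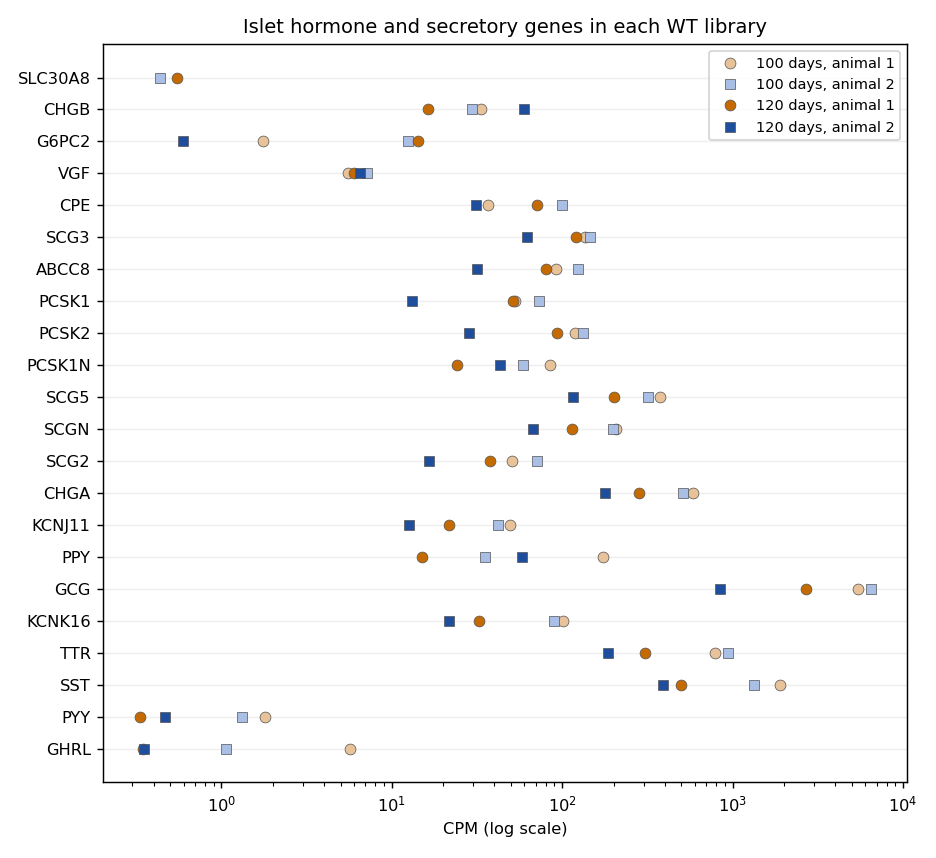
CPM on a log axis of 22 islet hormone and secretory genes in the 4 WT libraries, with light symbols for 100 days, dark symbols for 120 days, circles for animal 1 and squares for animal 2. In 16 of these genes both dark symbols lie to the left of both light symbols, and libraries with 0 counts (SLC30A8) are not drawn.

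Islet transcription factors were unlike in both 120-day animals. Of 16 tested, 15 were lower and 1 higher. In 6 both 120-day animals lay below both 100-day animals (13.7% of all genes). The median was -0.25 in animal 1 and -2.26 in animal 2. ISL1, a factor of all islet cells, was counted at 27.6 and 34.2 CPM at 100 days against 20.8 and 7.75 CPM at 120 days. It was lower in each 120-day animal. PAX6 and INSM1 were counted at 13, 30.1, 30 and 3.58 CPM and at 40.1, 66.4, 48.4 and 10.6 CPM, so that animal 1 lay within the 100-day range and animal 2 below it. NKX2-2 had 5.99 CPM in animal 1 and 0 counts in animal 2, at least 85.3-fold below the 100-day mean against a floor of 3 counts. NEUROG3, the factor of islet precursors, was counted at 0.587 and 1.78 CPM at 100 days against 1.04 and 0 CPM at 120 days.

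Heat shock genes were lower at 120 days by a like amount in both animals. Of 23 genes 20 were lower and 3 higher. In 17 both 120-day animals lay below both 100-day animals (13.7% of all genes). An unadjusted p of at most 0.05 was reached by 3 of the lower genes (2.05% of all genes). The median was -0.56, with -0.54 in animal 1 and -0.50 in animal 2. DNAJB1, a helper of HSP70 that responds strongly to heat, was counted at 186 and 205 CPM at 100 days against 77 and 114 CPM at 120 days. HSPH1, which recycles HSP70, had 117 and 131 CPM at 100 days against 49.4 and 65.3 CPM at 120 days. HSPA4L was counted at 13.9 and 19.6 CPM at 100 days against 8.81 and 5.67 CPM at 120 days, with -1.21 ± 0.33. All 3 were below the 100-day values in both animals. The summed level was 5347 and 6064 CPM at 100 days against 3798 and 3787 CPM at 120 days, and at 80 days it was 3522 and 3452 CPM, so the 100-day animals were above both neighbouring ages.

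Genes of the unfolded protein response, which adjusts the folding capacity of the endoplasmic reticulum, were lower in 24 of 32 cases and higher in 8. In 13 both 120-day animals lay below both 100-day animals (13.7% of all genes), and the median was -0.27. HERPUD1, a part of the degradation machinery, was counted at 277 and 222 CPM at 100 days against 144 and 119 CPM at 120 days, with -0.92 ± 0.27. MANF, a secreted stress protein, had 267 and 166 CPM at 100 days against 101 and 125 CPM at 120 days. Both were lower in each 120-day animal. HSPA5, the main chaperone of this compartment, was counted at 1309 and 1194 CPM at 100 days against 833 and 712 CPM at 120 days. XBP1, the factor that drives the response in secretory cells, had 1207 and 869 CPM at 100 days against 832 and 459 CPM at 120 days. These were lower in both animals too. DERL3 was an exception, at 24.6 and 6.35 CPM at 100 days against 27.6 and 34.6 CPM at 120 days.

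Acinar genes were mostly lower, with 17 of 23 lower and 6 higher and a median of -0.38, but 0 had an unadjusted p of at most 0.05. In 7 both 120-day animals lay below both 100-day animals (13.7% of all genes), and in 1 above (13.1%). CPA1 (LOC101117326) and CEL, encoding carboxypeptidase A and the bile salt lipase, were counted at 22487, 15897, 26369.9 and 15563 CPM and at 12240.4, 11527, 16526 and 12282 CPM, with the ages overlapping for CPA1. CLPS, encoding the lipase cofactor, and SPINK1, the trypsin inhibitor, were lower in both 120-day animals, at 10094, 3009, 2806 and 2200.1 CPM and at 675, 352, 257 and 254 CPM, and both were high above all in 100-day animal 1. AMY2B (LOC101118831), an amylase gene, was counted at 5941 and 3668 CPM at 100 days against 2956 and 1409 CPM at 120 days. Trypsinogen, chymotrypsinogen and amylase genes have close copies whose reads may be split. Of 25 duct or epithelial genes 20 were lower and 5 higher. Of the lower, 5 had an unadjusted p of at most 0.05 (2.05% of all genes), and of the higher 1 (5.23%). Beside SCTR, CLDN10, which forms ion pores between cells, was lower in both animals, at 10.2 and 7.65 CPM at 100 days against 2.08 and 3.38 CPM at 120 days. CFTR was counted at 20.8 and 28.3 CPM at 100 days against 24.7 and 14 CPM at 120 days. The keratin KRT19 (LOC101117946) had 147 and 67.6 CPM at 100 days against 54.1 and 68.7 CPM at 120 days. SOX9, a factor of duct cells, had 94 and 107 CPM at 100 days against 97.8 and 44.1 CPM at 120 days. The ages overlapped for these 3 genes.

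Proliferation genes lay near their 100-day levels. Of 28 mitosis genes 19 were lower and 9 higher, with a median of -0.14. Of the lower, 2 had an unadjusted p of at most 0.05 (2.05% of all genes). CENPA, the histone of centromeres, and CCNB1, the cyclin of mitotic entry, were lower in both animals, at 41.8, 31.3, 22.4 and 20.7 CPM and at 24.6, 19.9, 14.1 and 13.6 CPM. Of 30 DNA replication genes 17 were higher and 13 lower, and 0 reached an unadjusted p of 0.05, with PCNA at 76.4 and 67.3 CPM at 100 days against 63.4 and 61.5 CPM at 120 days. Immediate early genes had 12 of 15 higher and 0 at an unadjusted p of at most 0.05.

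Some intestinal transcripts were high in 100-day animal 1 alone. APOC3, an apolipoprotein of gut and liver, was counted at 131 and 0.344 CPM at 100 days against 0.0722 and 0 CPM at 120 days. FABP1, a fatty acid carrier of the same organs, had 32.7 and 0 CPM at 100 days against 0 and 0 CPM at 120 days. Neither was seen at that level in any other library compared. MLN, encoding the gut hormone motilin, was counted at 5.39 and 0.219 CPM at 100 days against 0 and 0 CPM at 120 days. TFF3, a peptide of goblet cells, had 17.9 and 0.313 CPM at 100 days against 0.0577 and 0.148 CPM at 120 days. In each of these 4 genes 100-day animal 2 was close to the 120-day animals. Of 16 tested gut genes 14 were lower at 120 days and 2 higher, with a median log2 fold change of -2.42, and without 100-day animal 1 that median was -0.40. CPS1 and APOB of the liver list had the same order, at 18.1, 0, 0.0866 and 0 CPM and at 78.9, 5.27, 7.2 and 2.87 CPM. The 100-day values of these genes therefore rest on 1 library, and the part that tissue other than pancreas has in it was not tested. The abundant gut genes TFF2, TFF1 and VIL1 did not share this order. Scaled over both genotypes, TFF2 was at 878 and 831 CPM at 100 days against 700 and 909 CPM at 120 days. In the same order TFF1 was at 118, 85.9, 56.1 and 257 CPM, and VIL1 at 119, 109, 89.6 and 45.2 CPM.

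Hepatocyte genes had 8 of 26 higher and 18 lower, skeletal muscle genes 9 of 14 higher and 5 lower, and megakaryocyte genes 3 of 6 higher and 3 lower. ALB, encoding albumin, was at 7.84 and 22.9 CPM at 100 days against 26.6 and 20.8 CPM at 120 days. ACTA1 of skeletal muscle, at 2.91 and 3.61 CPM at 100 days against 0.924 and 1.35 CPM at 120 days, was lower in both 120-day animals, as CHRND was, while TNNT3 was at 1.17 and 1.39 CPM at 100 days against 1.01 and 11.3 CPM at 120 days and highest in animal 2.

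Some of the widest differences between both 120-day animals were seen between the 100-day animals as well. PEG10, an imprinted gene of growth, was counted at 3.72 and 9.71 CPM at 100 days against 42.5 and 0.519 CPM at 120 days. CMTM6, a membrane protein, had 1.24 and 14.4 CPM at 100 days against 25.7 and 0.556 CPM at 120 days. IP6K1, an inositol phosphate kinase, had 2.28 and 12 CPM at 100 days against 21.2 and 0.593 CPM at 120 days. All 3 were lower in 100-day animal 1 than in animal 2 and far lower in 120-day animal 2 than in animal 1, so the ages overlapped. On the other side CLEC4G, a lectin of liver and lymph node endothelium, was counted at 0.196 and 0 CPM at 100 days against 0.115 and 75.5 CPM at 120 days. FCN1, a recognition protein of monocytes and granulocytes, had 0.348 and 0.438 CPM at 100 days against 0.0289 and 42.2 CPM at 120 days. These 2 were high in 120-day animal 2 alone.

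The step from 100 to 120 days in WT was set beside that in CFTR-/- animals, of which there were also 2 at each age. These were cloned by somatic cell nuclear transfer from 1 male fibroblast line with CFTR targeted in exon 2, so genotype, cloning and the origin of the animals cannot be told apart. CFTR-/- animal 2 at 100 days stood apart, with a summed acinar level of 15414 CPM against 234452 CPM in animal 1. Its summed lymphoid level was 469 CPM against 43.2 CPM, and its adipocyte level 837 CPM against 134 CPM. ADIPOQ was at 236 CPM in it against 0 CPM in animal 1, and ELN at 1470 CPM against 65.2 CPM. High fat cell, elastin and lymphoid levels were thus not confined to WT 120-day animal 2. The summed neuron level, at 222 CPM against 288 CPM, was not raised. Its animal label is also that of a WT animal of 65 days. The difference of the steps was called for 0 of 19522 genes (0%) by edgeR, with a smallest adjusted p of 0.176, and 2187 genes (11.2%) had an unadjusted p of at most 0.05. Without that animal 443 genes (2.27%) did. CPM of CFTR-/- animals were scaled over the libraries of both genotypes, which moves WT values slightly from those given above.

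Unfolded protein response genes were mostly lower at 120 days in WT and mostly higher in CFTR-/- animals. In CFTR-/- animals 30 of 32 were higher at 120 days, with a median log2 fold change of 0.87 against -0.27 in WT, and 0.62 without 100-day animal 2. In 20 of the 32 both CFTR-/- animals of 120 days lay above both of 100 days, against 23.1% of all genes. The difference of steps had an unadjusted p of at most 0.05 for 15 of the 32 (11.2% of all genes), and for 5 without that animal (2.27%). HSPA5 was at 1005 and 518 CPM at 100 days against 1236 and 2847 CPM at 120 days in CFTR-/- animals, highest in 120-day animal 2. The order was not particular to this list, since acinar genes moved further the same way. All 23 were higher at 120 days in CFTR-/- animals, and in 21 the ages did not overlap. Their median was 1.78 (1.01 without 100-day animal 2) against -0.38 in WT. The difference of steps had an unadjusted p of at most 0.05 for 4 of the 23 acinar genes (11.2% of all genes), and for 0 without CFTR-/- animal 2 of 100 days (2.27%). Heat shock genes had a median of 0.35 in CFTR-/- animals (0.42 without 100-day animal 2) against -0.56 in WT. Of their 23 differences of steps 3 had an unadjusted p of at most 0.05 (11.2% of all genes), and 3 without that animal (2.27%).

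The metallothionein list summed to 403 and 19.9 CPM at 100 days against 123 and 308 CPM at 120 days in CFTR-/- animals, so the ages overlapped there, with the lowest value in 100-day animal 2. MT2A was at 210.4 and 8.93 CPM at 100 days against 60.4 and 136 CPM at 120 days, with an adjusted p of 0.438 for the difference of steps by edgeR. The islet list summed to 10465 and 2022 CPM at 100 days against 5696 and 7611 CPM at 120 days in CFTR-/- animals, with a median log2 fold change of 0.11, and of -0.41 without 100-day animal 2. The stromal list had medians of -0.50 and 0.37 in the same order, so that its direction in CFTR-/- animals turned on that animal.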

How the data were processed

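RNA of pancreas tissue was extracted with TRIzol, and oligo dT primed libraries were sequenced as 100 base paired-end reads on a NovaSeq. Per the labels and methods, the authors aligned reads to Oar_v4.0 with STAR and counted them per gene with featureCounts 1.6.3, and the deposited tables hold these raw counts, with no normalization. The strand setting and the treatment of reads that match several genes are not given in the sources used here. Of 24478 gene IDs 8432 were locus IDs, of which 501 took a name from a RefSeq table (assembly ARS-UI_Ramb_v3.0, names only) and 109 from the study's own tables by matching CPM within a relative tolerance of 0.0001.

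Counts were fitted with edgeR 4.0.16 (R 4.3.3, limma 3.58.1) by the quasi-likelihood test with TMM scaling and filterByExpr (minimum count 10, minimum total 15), on 10 WT libraries grouped by age, or on these and the CFTR-/- libraries for the difference of steps. A call needed an adjusted p (Benjamini-Hochberg) no higher than 0.01 and a log2 change of 0.58 or more in size. Log2 fold changes are per-gene differences of the edgeR fit on the log2 scale, with its default prior count. A prior count of 2 was used only for log2 CPM, from which differences between animals and the length trend were taken. The floor for libraries at 0 was 3 counts. Each 120-day animal was also left out in turn. Alternatives were DESeq2 1.42.0 and its size factors, other edgeR tests, filters and thresholds, other sets of libraries, a replicate block, and a loess (span 0.3) that removed the trend with gene length, which centres the values anew. Scripts were tested on simulated data. The floors cover counting error only, while standard errors come from the fit and include the spread between animals.

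The comparison, the gene lists and the rule for naming genes were chosen with earlier results of these data known. The rule took the 10 genes per direction with the smallest unadjusted p among those without overlap of the ages and with a mean of at least 1 CPM, every gene called in a single-animal fit, up to 4 most abundant members of each list and its 2 with the smallest p, all metallothioneins, 4 genes the study names for this step, and the 5 genes per direction most unlike between the 120-day animals among those with a mean of at least 10 CPM in them. Further list members, such as SLC30A1, KDR, PLIN1, KCNJ11 and MARCO, were named after their values were seen. List members that did not pass the filter on low counts are not in the counts. The tables hold CFTR-/- libraries of other ages, which were not used here beyond the fit of all libraries. Some genes are not reported here.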

Additional observations from a re-analysis of the deposited data

Results flagged for a closer look

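In 23 of the 208 named genes both 120-day animals lay on one side of both 100-day animals in WT and on the other side in CFTR-/- animals. Of all 19522 genes 927 (4.75%) did so. Many named genes were picked for a small p or for no overlap of the WT ages, so these 2 shares cannot be compared. Values below are the log2 fold change of the WT step minus that of the CFTR-/- step, and the quasi-likelihood test of the difference in edgeR called none of these genes, with adjusted p from 0.176 to 0.647. CPM here were scaled over both genotypes. Where libraries had 0 counts, as for APOC3 and IL7, the fitted value depends on edgeR's default prior count and is no bound. The order was taken from CPM without a floor. IL7 had 3 counts in WT 120-day animal 1, which the floor does not tell from 0, so its WT order rests on animal 2. APOC3 was at 0.033, 0.0215, 0.0693 and 0.099 CPM in CFTR-/- animals, 100-day animals first, so its order there rests on very low levels. Without CFTR-/- animal 2 of 100 days the difference moved by more than 1.5-fold in 11 of the genes. It was then 7.11 for ELANE, 7.72 for BAC5, 8.45 for S100A12 (LOC101103771), 11.38 for IL7, 2.51 for LCK, 6.24 for KCNN1, 2.42 for EGR3, -2.72 for CLPS, -1.39 for SPINK1, -1.15 for SLC30A2 and -1.35 for XBP1.

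In 11 genes the WT step was the lower. Of the unfolded protein response these were HERPUD1 (-2.50), HSPA5 (-2.12), XBP1 (-1.97) and HSP90B1 (-1.59). HERPUD1 was counted, 100-day animals first, at 271, 218, 141 and 117 CPM in WT and 154, 65.8, 163 and 494 CPM in CFTR-/- animals. Of acinar genes CLPS differed by -3.66 and SPINK1 by -2.03, and the zinc carrier SLC30A2 by -2.00. SLC30A2 was counted at 70, 49.9, 32.7 and 23.7 CPM in WT and 76.4, 7.94, 76.5 and 83.3 CPM in CFTR-/- animals, so that CFTR-/- animal 1 of 100 days was close to the CFTR-/- animals of 120 days. APOC3 differed by -12.10, which rests on WT animal 1 of 100 days. The others were CFI (-1.41) and LOC101122294, named CD46 (-0.45), both regulators of complement, and DDX58 (-1.21), a sensor of viral RNA.

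In 12 genes the WT step was the higher. The neutrophil genes were ELANE (9.42), BAC5 (9.37) and S100A12 (LOC101103771, 11.47). IL7, a growth factor of lymphoid cells, differed by 13.27, LCK, a kinase of T cells, by 3.86, and LOC101103227 by 6.20. The nerve gene NEFL differed by 6.14, and KCNN1, which belonged to no list, by 9.80. Of fat cell genes CIDEA differed by 4.72 and ACLY, which makes acetyl-CoA for fatty acid synthesis, by 1.65. ACLY was counted at 45.5, 50, 54.8 and 139.6 CPM in WT and 55.9, 97.6, 50.5 and 49.1 CPM in CFTR-/- animals, with the WT animals of 120 days apart by less than in the neutrophil genes. EGR3 (3.23) and the platelet integrin ITGA2B (1.95) completed the set.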

How the results depend on the processing

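The count of genes called between 120 and 100 days in WT was 0 by edgeR's quasi-likelihood test, 42 by DESeq2's Wald test (31 higher, 11 lower), 15 by edgeR's likelihood ratio test (11 higher, 4 lower) and 191 at an unadjusted p of 0.01. Leaving out 1 of the 4 animals gave 0 to 31 calls, with 31 without 120-day animal 1, 2 without 120-day animal 2 and 0 without either 100-day animal. It was 0 with DESeq2's size factors, a test against a 1.5-fold change, no filter, a CPM filter, the 4 libraries alone, all 20 libraries, the gene length trend removed and an adjusted p of 0.05, and with an older form of the quasi-likelihood fit chosen after the data were seen. For the difference of steps the count was 0, it was 677 at an unadjusted p of 0.01, and leaving out 1 animal gave 0 to 144 calls, with 144 without CFTR-/- animal 1 of 100 days and 4 without WT animal 1 of 120 days.

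With the replicate number as a block the counts were 0 in both comparisons, with 1009 and 2166 genes at an unadjusted p of at most 0.05. Nothing in the labels ties the numbers, and the deviations of animals with the same number correlated at -0.416 across genes. With the numbers crossed, chosen after the data were seen, the count was 0, with 1237 genes at an unadjusted p of at most 0.05.

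Of 208 named genes 0 to 9 changed sign under the settings that kept all 4 animals (4 of 201 with the 4 libraries alone), 45 without 120-day animal 2 and 21 without 120-day animal 1. Of 33 list medians 8 changed sign without 120-day animal 2, among them stellate or smooth muscle, macrophage, complement and neuron genes, 4 without 120-day animal 1 (cholesterol synthesis, interferon response, zinc transport and DNA replication), 3 without 100-day animal 1, 2 without 100-day animal 2, and 3 with the length trend removed (cholesterol synthesis, megakaryocyte and DNA replication). MT2A lay between -8.03 and -3.87 (log2) under every setting run. The cause of these changes was not tested. With 1 read at 0.0144 to 0.0217 CPM, levels of up to 3 counts in a library were taken as not different from 0.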
